A study of Mus musculus with 2 samples.

Results

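Conventional type 2 dendritic cells (cDC2) were picked out of single-cell RNA profiles of CD45+ liver cells by raw UMI counts, and 153 of 12618 kept barcodes met the rule. A UMI is a tag that marks 1 captured RNA molecule. The Vsig4 KO library held 50 of 5746 and the WT library 103 of 6872. The profiles come from live CD45+ single cells that were sorted from livers of Vsig4-/- mice and of WT mice. The livers of both groups bore B16F10 metastases; B16F10 is a transplantable melanoma from mice. Each genotype gave a single library, made with the 10x Genomics 5′ chemistry. How many mice each pooled, their age and their sex are not given in the sources used here, nor is how the Vsig4 allele was made. Barcodes were kept with 200 or more detected genes, 500 or more UMIs and no more than 10% of UMIs from mitochondrial genes. A cDC2 had at least 2 UMIs over Cd209a, Clec10a and Mgl2, at least 1 of Flt3 and at least 3 of H2-Aa. It had none of Xcr1, Clec9a, Cd3d, Cd3e, Cd3g, Cd79a or Siglech, at most 2 over the C1q genes, and at most 2 over Fscn1, Ccl22 and Cacnb3.

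Dendritic cells take up material in tissue, cut its proteins into peptides and show them to T cells on MHC molecules. Cells of the cDC2 lineage are known for loading MHC class II and priming CD4 T cells, develop under FLT3 signalling, and depend on the transcription factors IRF4, KLF4 and ZEB2 to differing degrees. CD209A, CLEC10A and MGL2 are C-type lectins, sugar-binding surface receptors that mark mouse cDC2 and some monocyte-derived cells. VSIG4 is a complement receptor of resident macrophages, Kupffer cells of the liver among them, and binds T cells as an inhibitory ligand.

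Depth was the same order in both libraries. The cDC2 held 486534 UMIs in Vsig4 KO and 892623 in WT, with medians of 9694 UMIs per Vsig4 KO cell and 8134 per WT cell. All kept barcodes had medians of 3306 and 3073 UMIs in Vsig4 KO and WT. Vsig4 itself gave 1 UMI in Vsig4 KO cDC2 and 0 in WT cDC2, so these cells do not check the genotype; the other kept barcodes held 2 Vsig4 UMIs in Vsig4 KO and 43 in WT. The libraries shared 54 barcode sequences; 2 Vsig4 KO cDC2 and 1 WT cDC2 carried one of them, and no sequence was a cDC2 in both.

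The label was checked first, as a description, because the cells were chosen by their RNA. Cd209a had a UMI in 49 of 50 Vsig4 KO cells and 97 of 103 WT cells, Clec10a in 34 and 74, and Mgl2 in 11 and 20. The summed lectin count ran from 2 through a median of 12.5 to 92 in Vsig4 KO, and from 2 through 14 to 69 in WT. At the edge of that threshold, 3 Vsig4 KO and 5 WT members had a sum of 2, and 3 Vsig4 KO and 4 WT barcodes failed only with a sum of 1. The Flt3 threshold was far less sharp. A Flt3 count of exactly 1 admitted 24 Vsig4 KO and 44 WT members, while 40 Vsig4 KO and 92 WT barcodes met every other condition and had 0. Those near misses had Cd7 at 89.6 CPM in Vsig4 KO and 216 CPM in WT (CPM is the summed UMIs of a gene over all UMIs of the same cells, scaled to a fixed total), against 384 and 457 CPM in the members. They had Itgam at 179 CPM in Vsig4 KO and 178 CPM in WT, against 127 and 165 CPM in the members.

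Among genes that the rule did not name, the decoy interleukin-1 receptor gene Il1r2 set these cells apart most from all other kept barcodes together. With 10 CPM added to both sides, its level was 10.2-fold that of all other kept barcodes in Vsig4 KO and 8.05-fold in WT. Next came the death-associated kinase gene Dapk1 at 7.80-fold in Vsig4 KO and 5.57-fold in WT, Ifitm1 at 11.9-fold and 5.33-fold, and the properdin gene Cfp at 5.85-fold and 5.14-fold. H2-DMb1, which encodes a chain of the peptide-loading catalyst DM, was at 6.20-fold in Vsig4 KO and 4.91-fold in WT. H2-Ab1, a class II chain, was at 5.33-fold in Vsig4 KO and 4.07-fold in WT. These class II genes were not particular to cDC2. In cDC1, a class described below, H2-DMb1 was at 866 CPM in Vsig4 KO and 661 CPM in WT, against 900 and 885 CPM in cDC2. H2-Ab1 was at 7911 and 9355 CPM in cDC1, against 9461 and 8513 CPM in cDC2. Il1r2 was at 658 and 571 CPM in cDC2 and at 34.7 and 21.0 CPM in cDC1. In mature dendritic cells, also described below, Il1r2 was at 425 and 103 CPM. Cd209c, a neighbour of Cd209a in the same lectin family, was at 45.2 CPM in Vsig4 KO and 70.6 CPM in WT; reads of this family can be split between close copies. The library ratios of all 17 leading genes outside the rule lay between 3.98 and 11.9.

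**Figure D1:**
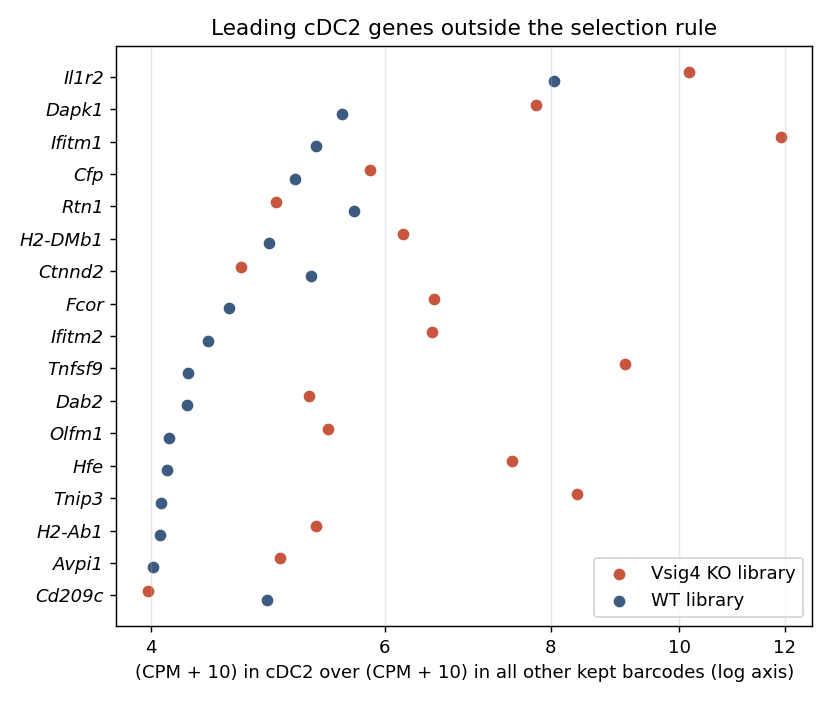
Level of each leading gene in cDC2 over its level in all other kept barcodes, as a ratio of CPM + 10 on a log axis, in the Vsig4 KO library (red) and the WT library (blue). Il1r2 stands highest in WT at 8.05-fold and Ifitm1 in Vsig4 KO at 11.9-fold; genes used by the rule are left out.

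The given marker H2-DMb2 did not set cDC2 apart from B cells. It had a UMI in 40.0% of Vsig4 KO and 39.8% of WT cDC2, against 77.4% of Vsig4 KO and 64.0% of WT B cells (at least 2 UMIs of Cd79a and 1 of Ms4a1). B cells were the shallower cells, with medians of 2929 UMIs in Vsig4 KO and 2522 in WT. The H2-DMb2 level of 164 CPM in Vsig4 KO cDC2 and 133 CPM in WT cDC2 was near that of all other kept barcodes, at 172 and 99.8 CPM. It was at 89.85 and 59.8 CPM in cDC1 and at 184.5 and 116 CPM in mature dendritic cells. In classical monocytes, also described below, it was at 2.44 and 6.67 CPM. The classical surface genes were present: Sirpa, the receptor that binds CD47, at 267 CPM in Vsig4 KO and 201 CPM in WT, and the integrin gene Itgam in 31 of 50 and 59 of 103 cells. Cd4 and Esam, genes of splenic cDC2 subsets, had 0 UMIs in both libraries. After thinning to 2000 UMIs, 0 of 50 Vsig4 KO cells and 0 of 102 WT cells had a UMI, which allows up to 7.11% and 3.55% of cells with a UMI at that depth (upper exact limits, counting error only). It sets no limit on cells that express the genes.

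Genes of myeloid neighbours were present: the 8 classical monocyte genes summed to 2477 CPM in Vsig4 KO and 3800 CPM in WT. The 6 non-classical monocyte genes summed to 1379 and 976 CPM, of which Nr4a1 alone was 1293 and 907 CPM. Ace, Treml4 and Cd300e were each at 10.3 CPM or less in both libraries. The 7 plasmacytoid dendritic cell genes summed to 352 and 434 CPM, mostly from Bst2 (232 and 256.5 CPM) and Tcf4 (109 and 171 CPM). Siglech is 0 by the rule. Defining genes of lymphocytes, Kupffer cells, granulocytes and non-immune cells gave few UMIs. Of 5 T cell genes 4 had no UMI in either library, 3 of them by the rule, and the other gave 8 UMIs in Vsig4 KO and 2 in WT. The B cell genes gave 4 UMIs in Vsig4 KO and 9 in WT, the Kupffer cell genes 3 and 9, and the 3 basophil and mast cell genes 0 and 0. The melanoma genes gave 1 and 7 UMIs, and the hepatocyte genes 11 and 23. Neutrophil genes gave 8 UMIs in Vsig4 KO and 92 in WT, and NK cell genes 5 and 60; in WT, 1 cell gave all S100a8 and 92.9% of S100a9, and 1 cell gave 95.7% of Gzma. Xcr1 and Clec9a are 0 by the rule.

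Vsig4 KO cDC2 made up 0.870% of kept barcodes (95% exact interval 0.647 to 1.15) and WT cDC2 1.499% (1.23 to 1.82). The ratio was 0.581, with a counting interval of 0.406 to 0.822. All intervals given here cover counting error only; with 1 library per genotype there is no replicate, no test was run, and differences between mice, sorts or libraries cannot be told apart from genotype. The ratio lay between 0.489 and 0.630 under 11 other ways of drawing the rule. Other classes were set beside them. cDC1, the cross-presenting lineage marked by Xcr1 and Clec9a, had a ratio of 0.683 (0.428 to 1.07), with 32 Vsig4 KO and 56 WT cells. Classical monocytes, chosen mainly by Ly6c2 and Lyz2, had a ratio of 0.420 (0.333 to 0.525), with 107 and 305 cells. Mature dendritic cells, chosen by Fscn1, Ccl22, Cacnb3 and Ccr7, had 28 and 34 cells and a ratio of 0.985 (0.575 to 1.67). Of the 3 dendritic classes together, cDC2 were 45.5% in Vsig4 KO and 53.4% in WT, a ratio of 0.852 (0.595 to 1.21). With classical monocytes added to that total they were 23.04% in Vsig4 KO and 20.7% in WT, a ratio of 1.11 (0.778 to 1.58), so the direction depends on the cells they are counted among.

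**Figure D2:**
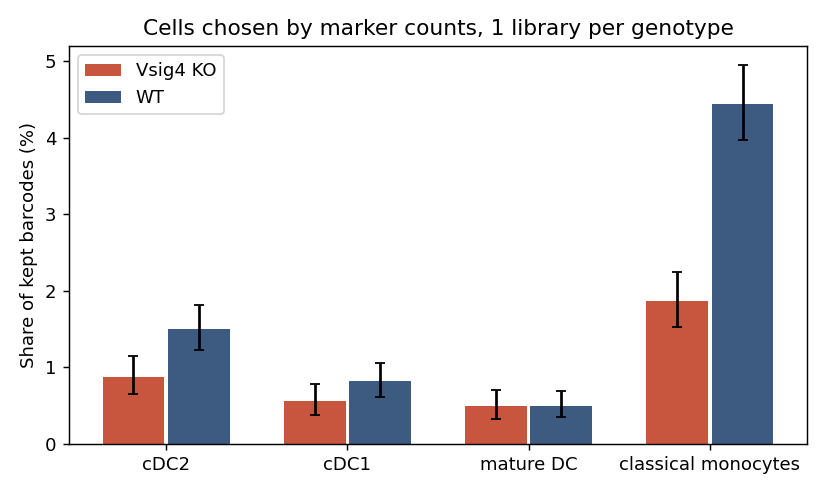
Share of kept barcodes in each cell class in percent, for the Vsig4 KO library (red, left) and the WT library (blue, right), with 95% exact intervals that cover counting error only. cDC2 are 0.870% in Vsig4 KO and 1.499% in WT, and classical monocytes 1.86% and 4.44%.

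The cDC2 differed among themselves. Clustering the 153 cells gave 4 sub-clusters, which are described by number because the same genes define them. Sub-cluster 0, with 22 Vsig4 KO and 33 WT cells, was led by Hilpda, Ramp3, Tnfaip2, Bcl2a1b and Il1r2, with Cd274, the gene of the checkpoint ligand PD-L1, and Ccr7, the receptor that guides dendritic cells to lymph nodes, also among its top 12. Sub-cluster 1, with 19 and 45 cells, was led by Lyz2, Clec4e, F13a1, Cxcl10, Fn1 and Ly6c2, most of them genes also used by monocytes. Sub-cluster 2, with 4 and 8 cells, was led by Stmn1, Pclaf and Mcm5, genes of DNA replication and dividing cells. Sub-cluster 3, with 5 and 17 cells, was led by Klra17, Cyp7b1, Cd209d and Alox5 and had the highest Cd7 level, at 1610 CPM in Vsig4 KO and 1493 CPM in WT.

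Some of the genes that define the sub-clusters, Lyz2, Ly6c2, Klf2 and Ccr7 among them, also differed between the genotypes, so the sizes of the sub-clusters are not compared. Cd209a spread over sub-clusters 0 and 1 at 1421 and 1834 CPM in Vsig4 KO and 1651 and 1919 CPM in WT. It was lowest in the dividing sub-cluster 2, at 378 CPM in Vsig4 KO and 702 CPM in WT. Lyz2, the macrophage lysozyme, was highest in sub-cluster 1, at 2949 CPM in Vsig4 KO and 5052 CPM in WT. It was at 141 and 409 CPM in sub-cluster 0, and at 1077 CPM in Vsig4 KO and 97.6 CPM in WT in sub-cluster 2, on 57 and 10 UMIs. Cells with a UMI of Ly6c2, Fcgr1, Ms4a7 or Adgre1, genes of monocytes and macrophages, were 20 of 50 in Vsig4 KO and 46 of 103 in WT. Dividing cells, with at least 2 UMIs over 5 cell-cycle genes, were 7 of 50 and 7 of 103.

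**Figure D3:**
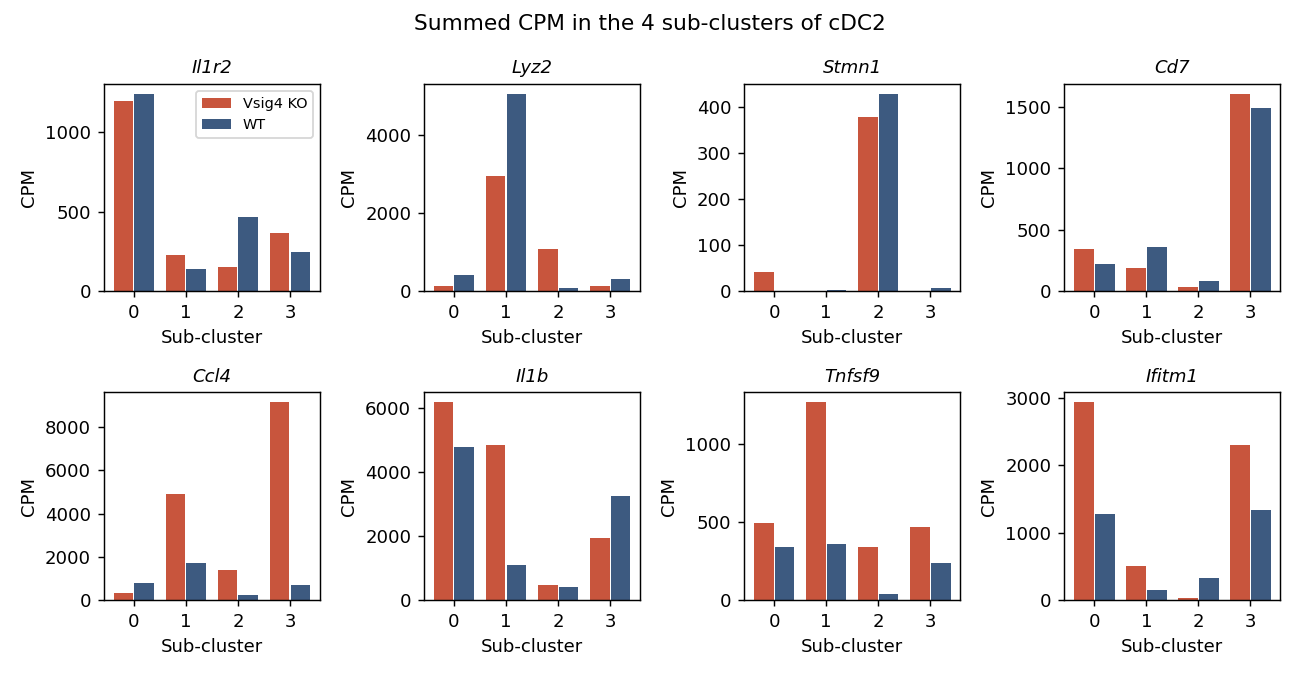
Summed level in CPM of 8 genes in the 4 sub-clusters of cDC2, for Vsig4 KO (red, left) and WT (blue, right); sub-clusters 2 and 3 hold 4 and 5 Vsig4 KO cells and 8 and 17 WT cells. Il1r2, Lyz2, Stmn1 and Cd7 each peak in a different sub-cluster, and Ccl4 is higher in Vsig4 KO in sub-clusters 1, 2 and 3 and lower in sub-cluster 0.

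The genotype comparison asked how cDC2 RNA differed where mice lacked VSIG4. On the higher side stood several genes of inflammatory signalling, named here after their values were seen: Ccl4, Tnf, Il1b, Tnfsf9, Socs3, Nfkbia and Zfp36 were 1.79-fold to 3.03-fold the WT level. Some of the lists they come from were mixed. Of 10 measured chemokine genes 2 were higher and 3 lower, and of 20 NF-kB target genes 2 were higher and 1 lower. Of 4 measured genes of the cytokine list 3 were higher and none lower, and of 7 costimulatory genes 1 was higher and none lower. On the lower side stood the monocyte genes Lyz2 and Ly6c2, the transcription factor gene Klf2 and the heat-shock genes Hspa1a and Hspa1b. Genes of antigen presentation differed little over all cDC2 together. Of 3706 genes with at least 50 UMIs over both libraries, 134 (3.62%) were at least 1.5-fold higher in Vsig4 KO cDC2 and 210 (5.67%) at least 1.5-fold lower. The fold here is the ratio of CPM + 10, given as a log2 difference of Vsig4 KO over WT. The median over all 3706 was -0.02, and 122 of the higher and 167 of the lower genes had a counting interval that did not include 1. Of these calls, 8 higher and 14 lower were past the same line in the other kept barcodes. Of all 3706 genes, 17 were at least 1.5-fold higher and 77 at least 1.5-fold lower in the other kept barcodes.

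**Figure D4:**
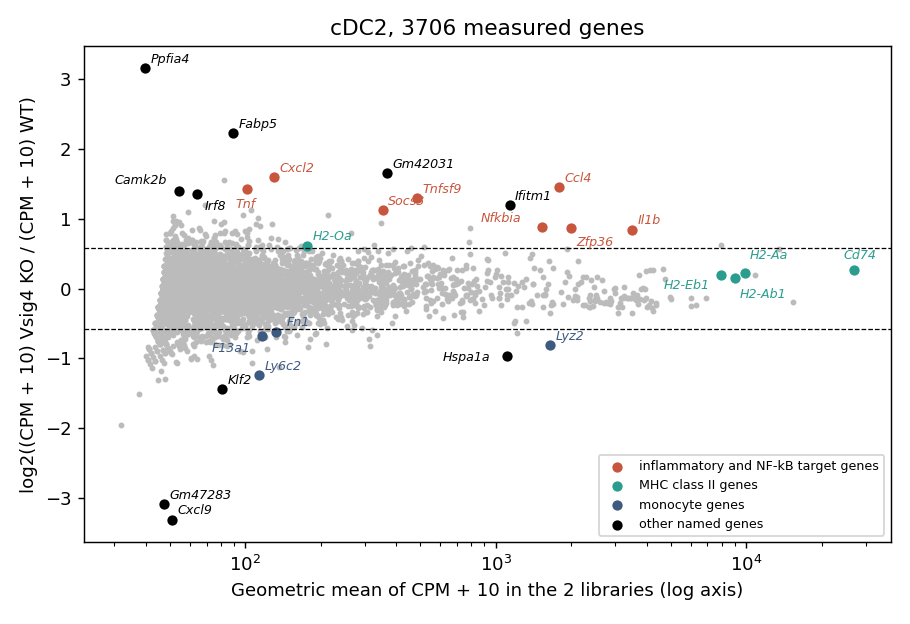
Log2 ratio of CPM + 10, Vsig4 KO over WT, against the geometric mean level in cDC2 (log axis), 1 point per measured gene; dashed lines mark 1.5-fold. Named genes such as Ccl4 (1.45) lie above the upper line, class II genes such as H2-Aa (0.22) near 0, and Lyz2 (-0.81) and Ly6c2 (-1.24) below the lower line.

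The calls depend on which cells the Flt3 threshold admits. With at least 2 Flt3 UMIs, 52 of the 134 higher and 60 of the 210 lower calls remained, and with no Flt3 threshold 51 and 62. Applying the rule to barcodes thinned to 2000 UMIs left 18 Vsig4 KO and 41 WT cells, in which 15 and 13 of these calls remained. Of the genes named below, Ccl4, Il1b, Tnfsf9, Ifitm1, Irf8, Clec4e, Ppfia4, Camk2b and Gm42031 stayed past 1.5-fold higher under all 16 alternatives run for single genes. So did Klf2, Hspa1a, Clec4b1, Sap30, Zfp148 and Gm47283 on the lower side.

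The ligand genes are described first. Ccl4, a chemokine that draws T cells, NK cells and monocytes (chromosome 11, 83662584 to 83664683, plus strand), was at 2933 CPM in Vsig4 KO (2783 to 3089) and 1070 CPM in WT (1003 to 1140), a ratio of 2.74 (2.52 to 2.98). It had a UMI in 38 of 50 Vsig4 KO and 54 of 103 WT cells. After every cell was thinned to 2000 UMIs, the share was 58.0% in Vsig4 KO (43.2 to 71.8) and 38.2% in WT (28.8 to 48.4). In B cells, where UMIs of the gene may be free RNA, the shares were 5.13% in Vsig4 KO and 4.66% in WT. By sub-cluster it was 4893 CPM in Vsig4 KO and 1703 CPM in WT in sub-cluster 1, 9148 and 702 CPM in sub-cluster 3, and 314 and 785 CPM in sub-cluster 0. Sub-cluster 0 was thus the exception to the higher level.

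Tnf, the tumour necrosis factor gene (chromosome 17, 35199381 to 35202007, minus strand), gave 76 UMIs in 16 Vsig4 KO cells and 46 in 27 WT cells, at 156 and 51.5 CPM, a ratio of 3.03 (2.08 to 4.47). A single Vsig4 KO cell held 31.6% of them; without the top 1 Vsig4 KO and top 2 WT cells the log2 difference was 1.18 instead of 1.43, and with no Flt3 threshold it was 0.56. Il1b, the interleukin-1β gene (chromosome 2, 129364570 to 129371139, minus strand), was far more abundant, at 4664 CPM in Vsig4 KO and 2608 CPM in WT, a ratio of 1.79 (1.69 to 1.90). It was higher in sub-cluster 1, at 4847 CPM in Vsig4 KO and 1085 CPM in WT, and in sub-cluster 0, at 6180 and 4793 CPM. In sub-cluster 3 it was lower, at 1936 CPM in Vsig4 KO and 3249 CPM in WT.

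Tnfsf9 encodes 4-1BB ligand, which costimulates T cells (chromosome 17, 57105325 to 57107757, plus strand). It was at 746 CPM in Vsig4 KO and 299.1 CPM in WT, a ratio of 2.49 (2.12 to 2.93), and was higher in Vsig4 KO in each of the 4 sub-clusters. Of the 4 measured genes of the cytokine list, 3 were called higher: Tnf, Il1b and Tgfbi. Tgfbi, which encodes an extracellular matrix protein rather than a cytokine, was at 395 CPM in Vsig4 KO and 253 CPM in WT. The cytokine genes Il12b, Il10 and Il23a gave at most 3 UMIs in either library. Il6 gave 0 UMIs in Vsig4 KO and 19 in 7 WT cells, too few to be measured. Its WT level of 21.3 CPM was 3.45-fold a floor of 3 counts over the Vsig4 KO cells, or 6.17 CPM. That value leaves out the counting error of the WT level. Of 10 measured chemokine genes, Ccl4 and Cxcl2 were called higher and Ccl5, Ccl6 and Cxcl9 lower, with a median log2 difference of -0.16. Ccl6 was at 232 CPM in Vsig4 KO and 390 CPM in WT.

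The same side held feedback regulators of inflammatory signalling. Nfkbia, the inhibitor that holds NF-kB in the cytoplasm and is itself an NF-kB target, was at 2070 CPM in Vsig4 KO and 1119 CPM in WT, a ratio of 1.85 (1.69 to 2.02); with at least 2 Flt3 UMIs the log2 difference was 0.42 instead of 0.88. Socs3, a brake on cytokine receptor signalling, was at 510 CPM in Vsig4 KO and 230 CPM in WT, a ratio of 2.22 (1.84 to 2.68). Zfp36, which binds Tnf and other cytokine mRNAs and speeds their decay, was at 2691 CPM in Vsig4 KO and 1467 CPM in WT, a ratio of 1.83 (1.70 to 1.98). The RNase gene Zc3h12a was at 111 and 60.5 CPM, and Tnip3, an A20-binding protein gene, at 339 and 190 CPM. Under the rule on thinned barcodes the log2 differences of Zfp36 and Socs3 were 0.14 and 0.46, below the line.

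Promoter sequences are shown for 3 of these genes because a reader may want to see where a loose NF-kB type motif lies in them. They are the 250 bases before the RefSeq transcription start, 5′ to 3′ on the gene's strand, build GRCm38.p6, and capitals mark each match of GGGA, any 4 bases, then CC, or of its reverse complement GG, any 4 bases, then TCCC.
Nfkbia (chr12:55492648-55492897, minus strand): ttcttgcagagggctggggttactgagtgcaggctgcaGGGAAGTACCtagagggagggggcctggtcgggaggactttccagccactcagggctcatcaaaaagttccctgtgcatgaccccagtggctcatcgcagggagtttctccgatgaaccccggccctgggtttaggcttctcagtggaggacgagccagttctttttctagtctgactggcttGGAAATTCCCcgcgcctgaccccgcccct
Socs3 (chr11:117969367-117969616, minus strand): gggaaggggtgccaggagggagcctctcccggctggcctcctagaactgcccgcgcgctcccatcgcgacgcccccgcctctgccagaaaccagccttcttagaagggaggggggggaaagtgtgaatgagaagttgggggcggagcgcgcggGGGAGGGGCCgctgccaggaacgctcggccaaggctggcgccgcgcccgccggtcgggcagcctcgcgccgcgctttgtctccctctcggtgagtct
Tnf (chr17:35202008-35202257, minus strand): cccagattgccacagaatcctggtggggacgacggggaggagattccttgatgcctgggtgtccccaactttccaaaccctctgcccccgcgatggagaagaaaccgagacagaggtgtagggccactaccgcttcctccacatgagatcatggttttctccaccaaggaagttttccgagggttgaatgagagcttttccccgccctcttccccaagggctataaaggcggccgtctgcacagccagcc
Nfkbia holds matches that begin 212 and 29 bases before the start, Socs3 holds 1 that begins 97 bases before it, and Tnf holds none in this window. This loose motif was in 17.6% of all 32851 promoters of that length and in 27.1% of the 2996 measured genes with a promoter entry. It was in 6 of 17 NF-kB target genes with an entry (35.3%). A match of letters does not show binding.

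NF-kB target genes as a list leaned the same way without many calls. Of 20 measured, 17 were above 0, with a median log2 difference of 0.28 against -0.02 for all measured genes; 2 were called higher, Nfkbia and Zc3h12a, and 1 lower, Tnfaip2, at 47.3 CPM in Vsig4 KO and 80.7 CPM in WT. The median was 0.06 with at least 2 Flt3 UMIs. Icam1, an adhesion ligand, was just short of the line at 173 CPM in Vsig4 KO and 112 CPM in WT (log2 difference 0.58). Of 19 measured early response genes, Btg2 and Zfp36 were called higher and Klf2 lower, with a median of 0.26. Ptgs2, the prostaglandin synthase COX-2, was at 475 CPM in Vsig4 KO and 242 CPM in WT, a ratio of 1.96 (1.62 to 2.37).

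Other myeloid cells were set beside cDC2. In classical monocytes the CPM ratio of Vsig4 KO over WT was 1.52 for Ccl4, 1.77 for Tnf, 2.06 for Il1b, 1.78 for Tnfsf9 and 1.70 for Nfkbia. In cDC1 it was 0.781 for Ccl4 (0.703 to 0.868), 0.271 for Tnf on 3 Vsig4 KO and 14 WT UMIs, 0.946 for Il1b, 1.05 for Tnfsf9 and 1.97 for Nfkbia. In mature dendritic cells it was 1.69 for Ccl4, 0.636 for Tnf on 8 Vsig4 KO and 17 WT UMIs, 1.42 for Il1b, 4.06 for Tnfsf9 and 1.04 for Nfkbia. Over all other kept barcodes together the ratios were 1.01 for Ccl4, 1.03 for Tnf, 1.04 for Il1b and 1.17 for Tnfsf9. The NF-kB list had a median log2 difference of 0.28 in cDC2, 0.33 in classical monocytes, 0.19 in cDC1 and -0.14 in mature dendritic cells. Whether these ratios differ between cell classes was not tested.

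**Figure D5:**
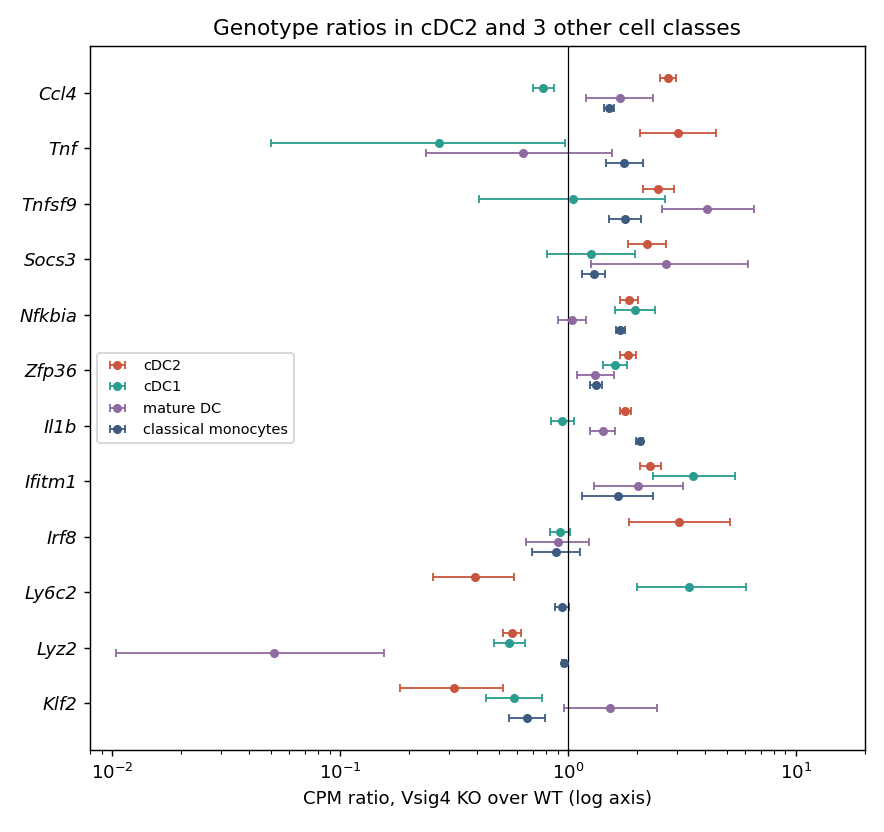
CPM ratio of Vsig4 KO over WT on a log axis for 12 genes in cDC2 (red), cDC1 (green), mature dendritic cells (purple) and classical monocytes (blue), with 95% intervals for counting error; the line marks equal levels, and Ly6c2 in mature dendritic cells (0 and 1 UMI) is not drawn. Ccl4 is 2.74 in cDC2 and 0.781 in cDC1, Ifitm1 is above 1 in all 4 classes, and Klf2 is 0.317 in cDC2 and 0.661 in classical monocytes. Ly6c2 and Lyz2 were used to choose the classical monocytes.

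Over all cDC2 together, antigen presentation genes lay close to equal. Of 12 measured class II genes 1 was called higher and none lower, with a median log2 difference of 0.11. The sub-clusters were less even. The class II list summed to 66101 CPM in Vsig4 KO and 64124 CPM in WT in sub-cluster 0, and to 57915 and 43782 CPM in sub-cluster 1. In sub-cluster 2 it summed to 49226 and 60993 CPM, and in sub-cluster 3 to 69514 and 45761 CPM. Sub-clusters 2 and 3 held few cells. Cd74, the invariant chain that guides class II molecules, was at 29583 CPM in Vsig4 KO and 24482 CPM in WT, a ratio of 1.21 (1.18 to 1.23). The class II chain genes H2-Aa and H2-Ab1 had ratios of 1.16 (1.12 to 1.21) and 1.11 (1.07 to 1.15); H2-Aa was also in the rule. In cDC1 these 3 genes had ratios of 0.894, 0.809 and 0.846. The called gene was H2-Oa, a chain of DO, which restrains DM, at 208 CPM in Vsig4 KO and 132 CPM in WT. Ciita, the master activator of class II transcription, was at 189 and 179 CPM. Of 14 measured class I genes only the peptide transporter gene Tap2 was called, at 113 CPM in Vsig4 KO and 65.0 CPM in WT.

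Costimulatory genes other than Tnfsf9 were within 1.5-fold. Cd86 was at 345 CPM in Vsig4 KO and 367 CPM in WT, Cd80 at 105 and 101 CPM, and Icosl at 94.6 and 72.8 CPM. Cd40 gave 10 and 19 UMIs, too few to be measured. Of the inhibitory genes, Havcr2, which encodes TIM-3, was at 51.4 CPM in Vsig4 KO and 97.5 CPM in WT, and Entpd1, the ectoenzyme CD39, at 26.7 and 49.3 CPM. Cd274 was at 37.0 and 47.1 CPM. The 13 measured maturation genes had a median of 0.05; Ccr7 was called lower at 61.7 CPM in Vsig4 KO and 124 CPM in WT, on 9 and 14 cells, with 46.7% of its Vsig4 KO UMIs in 1 cell. The rule itself caps mature cells.

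Lectins and pattern receptors divided. Of 13 measured lectin genes, Clec4n and Clec4e were called higher and Cd209d and Clec4b1 lower. Clec4n encodes dectin-2, which binds fungal mannans, and was at 132 CPM in Vsig4 KO and 38.1 CPM in WT, on 64 and 34 UMIs. Clec4e encodes Mincle, a receptor of microbial glycolipids and of dead cells, and was at 94.6 CPM on 9 Vsig4 KO cells and 35.9 CPM on 7 WT cells. Clec4b1 was at 55.5 CPM in Vsig4 KO and 103 CPM in WT. With no Flt3 threshold Clec4n had a log2 difference of 0.48 instead of 1.56. Cd209a, used by the rule, was at 1408 CPM in Vsig4 KO and 1684 CPM in WT.

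All 6 measured pattern recognition receptor genes were above 0, with a median log2 difference of 0.47 against -0.02 for all measured genes. The median was 0.52 in classical monocytes, 0.22 in cDC1, 0.14 in mature dendritic cells and -0.18 over all other kept barcodes. Under the rule on thinned barcodes it was 0.19 in cDC2. Of the 6 genes 2 were called higher, against 3.62% of all measured genes. They were the inflammasome sensor gene Nlrp3, at 171 CPM in Vsig4 KO and 104 CPM in WT, and the RNA sensor gene Ifih1, at 86.3 and 48.2 CPM. The Toll-like receptor gene Tlr2 was at 154 CPM in Vsig4 KO and 109 CPM in WT. Cd14, the lipopolysaccharide co-receptor gene, was at 580 and 417 CPM. Neither Tlr2 nor Cd14 passed 1.5-fold.

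Lineage transcription factors were mostly level. Of 23 measured, 1 was called higher and 1 lower, with a median of -0.02. Irf4 was at 61.7 CPM in Vsig4 KO and 60.5 CPM in WT, Zbtb46 at 65.8 and 63.9 CPM, Zeb2 at 352 and 407 CPM, and Klf4 at 98.7 and 137 CPM. Irf8, known as the driver of the cDC1 lineage, was called higher at 92.5 CPM in 16 Vsig4 KO cells and 30.3 CPM in 18 WT cells, a ratio of 3.06 (1.86 to 5.13). Of its Vsig4 KO UMIs, 14 of 45 fell in the 4 cells of the dividing sub-cluster 2, at 265 CPM, against 2 UMIs in the 8 WT cells there. Sub-cluster 0 held 20 Irf8 UMIs in Vsig4 KO and 6 in WT, at 93.8 and 19.6 CPM. Sub-cluster 1 held 11 and 17, at 64.2 and 48.9 CPM, and sub-cluster 3 held 0 and 2. In cDC1 the Irf8 level was 1346 CPM in Vsig4 KO and 1452 CPM in WT. Other cDC1 genes were few: of 5 measured, Irf8 and Ppt1 were called higher, and the summed level of the 9-gene list was 563 CPM in Vsig4 KO and 488 CPM in WT; the part of cDC1 RNA in the Irf8 difference was not tested. Tcf4, known for the plasmacytoid lineage, was called lower at 109 and 171 CPM.

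Klf2, which restrains myeloid activation and controls lymphocyte trafficking, was lower. It stood at 39.0 CPM in Vsig4 KO and 123 CPM in WT, a ratio of 0.317 (0.184 to 0.519), and was lower in sub-clusters 0 and 1; sub-cluster 2 had 3 Vsig4 KO and 5 WT UMIs, and sub-cluster 3 had 0 and 4. After thinning, 3 of 50 Vsig4 KO cDC2 (1.25% to 16.5%) and 19.6% of WT cDC2 (12.4 to 28.7) had a Klf2 UMI. B cells express the gene, at 69.0% and 70.5% after thinning.

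Monocyte genes were lower. Of 6 measured classical monocyte genes 4 were called lower and none higher, with a median log2 difference of -0.65, and their 8-gene list summed to 2477 CPM in Vsig4 KO and 3800 CPM in WT. Lyz2 was at 1231 CPM in Vsig4 KO and 2166 CPM in WT, a ratio of 0.569 (0.518 to 0.623). Ly6c2 was at 63.7 and 164 CPM, a ratio of 0.390 (0.255 to 0.577), and the coagulation factor gene F13a1 at 82.2 and 138 CPM. Ccr2, the receptor that brings monocytes out of marrow, was at 251 CPM in Vsig4 KO and 325 CPM in WT. The median was -0.09 without cells that had a UMI of Fcgr1, Ms4a7, Adgre1 or Ly6c2, where F13a1 had a log2 difference of 0.45, and -0.10 with no Flt3 threshold, where Lyz2 was at -0.03. Lyz2 was also lower in cDC1 (ratio 0.553) and over all other kept barcodes (0.515), but at 0.958 in classical monocytes. Ly6c2 went the other way in cDC1, with a ratio of 3.41 (2.01 to 6.02) on 54 Vsig4 KO and 20 WT UMIs. Over all other kept barcodes Ly6c2 was close, at 495.5 CPM in Vsig4 KO and 521.5 CPM in WT. The median log2 difference of the classical monocyte list in cDC1 was -0.59. Lyz2 and Ly6c2 were used to choose the classical monocytes, so the ratios of both genes in that class depend on the choice. Classical monocytes were also a smaller share of Vsig4 KO barcodes; the part of their RNA in these values was not tested.

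Of 12 measured heat-shock genes, Hspa1a, Hspa1b, Hsph1 and Bag3 were called lower, with a median of -0.12. Hspa1a was at 787 CPM in Vsig4 KO and 1543 CPM in WT and Hspa1b at 966 and 1502 CPM; these 2 genes are near-identical copies and their split is uncertain. In all other kept barcodes Hspa1a was at 769 CPM in Vsig4 KO and 1275 CPM in WT, but in cDC1 it was at 1268 CPM in Vsig4 KO and 1221 CPM in WT. Hspa1b had ratios of 0.826 in cDC1 (0.738 to 0.924), 0.712 in mature dendritic cells and 0.563 in classical monocytes. Its ratio was 0.634 over all other kept barcodes. The median of the heat-shock list was 0.34 in cDC1 and -0.26 in classical monocytes, so the list medians did not share a direction, while Hspa1b was lower in each class.

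Ifitm1, a membrane protein gene of the interferon-induced family, was at 1704 CPM in Vsig4 KO and 742 CPM in WT, a ratio of 2.30 (2.07 to 2.55). It had a UMI in 30 of 50 Vsig4 KO cells and 58 of 103 WT cells, so the share of cells was close while the level was not. Its ratio was 3.53 in cDC1 and 2.03 in mature dendritic cells, and 1.02 over all other kept barcodes. The type I interferon list did not follow, with a median of 0.02. Of 11 measured genes, 3 were called lower (Irf7, Ifi209 and Xaf1) and none higher. Ifih1, which was called higher, was counted with the pattern recognition receptors and not in this list. The interferon-gamma list had a median of -0.05.

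Among metabolic genes, 12 of 16 measured glycolysis and hypoxia genes were above 0, with a median of 0.28 against -0.02 for all measured genes. Of the 16, 1 was called, P4ha1, lower at 26.7 CPM in Vsig4 KO and 58.3 CPM in WT. Gapdh was at 1872 and 1415 CPM, a ratio of 1.32 (1.21 to 1.44), and Pgk1 at 201 and 148 CPM. Of 28 oxidative phosphorylation genes none was called, with a median of -0.11. The 19 measured lysosomal genes had a median of 0.06, and only the protease gene Lgmn was called, lower at 142 CPM in Vsig4 KO and 227 CPM in WT. The lists of Fc and phagocytic receptors (-0.10), of S100, galectin and cytoskeletal genes (0.02) and of proliferation (0.18) held no call.

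Genes with the largest differences in cDC2 were partly the same in other cells. Ppfia4, a liprin gene, gave 53 UMIs in 30 Vsig4 KO cells and 3 in 3 WT cells, a ratio of 32.4 (10.5 to 162), and had a ratio of 13.6 over all other kept barcodes. Gm42031, a predicted gene, had a ratio of 3.26 in cDC2 and 3.06 in the others, and Camk2b 3.32 and 3.35. Gm47283, on chromosome Y from 90784738 to 90816464, gave 3 UMIs in Vsig4 KO and 114 in WT cDC2, and had a ratio of 0.0820 in the others. Slc15a2, a peptide transporter gene, had a log2 difference of -0.45 in cDC2 on 19 and 51 UMIs and 1.45 in the others. Of the 12 lowest genes, Spata5, Dguok, Zfp148, Xylt1, Ptbp2 and Uso1 had log2 differences between -1.51 and -1.07 in cDC2 and between -0.09 and 0.06 in the others. Rhob (-1.18) and Sap30 (-1.09) completed the lower genes not yet named, beside Apoe.

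Some large values rested on few cells. Of the Fabp5 UMIs in Vsig4 KO cDC2, 80.9% came from 1 cell, and of the Cxcl2 UMIs 73.3%; without the top cells their log2 differences were 0.69 and 0.67 instead of 2.22 and 1.59. Of the Cxcl9 UMIs in WT, 88.8% came from 1 cell, and without the top cells the difference was -0.42 instead of -3.31. Ccl5 had 57.1% of its WT UMIs in 1 cell, and its difference was 1.07 without the top cells and -0.82 with them. Gzma was likewise at 0.34 without them and -1.95 with them. Apoe was at -0.20 instead of -1.14. Over all measured genes, 124 of the 134 higher and 179 of the 210 lower calls stayed past 1.5-fold without the top 1 Vsig4 KO and top 2 WT cells of each gene.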

How the data were processed

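The deposited files hold raw UMI counts per gene and cell barcode for 1 Vsig4 KO and 1 WT library, over 31253 genes; per the submitters' processing notes the authors used Cell Ranger 7.1.0 and build mm10. How cells were called is not given in the sources used here. Tissue was digested with collagenase, per the labels' protocols, and libraries came from the 5′ protocol, so a count is a captured molecule. The feature barcode and V(D)J data of the protocol were not used here.

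Members and gene lists were chosen with earlier results of these data known. UMIs were summed per library over the cDC2, and log2 ratios of CPM + 10 were taken for genes with at least 50 UMIs; 1.5-fold was the line for a call. Intervals are 95% exact Poisson, binomial or Clopper-Pearson intervals and cover counting error only. No test was run, since cells of 1 library are not replicates. The genes named are the 12 highest and 12 lowest with a UMI in at least 10% of cells of a library, up to 4 per list, and the main lineage genes. Scrublet's own threshold marked 1 Vsig4 KO and 0 WT barcodes, so it had not worked; leaving out the 264 Vsig4 KO and 378 WT barcodes with the highest scores is an alternative instead, and no doublet was removed otherwise. Sub-clusters came from scanpy 1.11.5, intervals from scipy 1.17.1, gene positions from GENCODE (31107 of 31253 genes matched), and promoters from RefSeq, build GRCm38.p6. The summing and ratio steps were tested on simulated data.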

Additional observations from a re-analysis of the deposited data

Results flagged for a closer look

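Clec4n and Tgfbi went one way in cDC2 and the other way over all other kept barcodes summed, which is why they are listed; the difference between the cell groups was not tested. Clec4n had a log2 difference of 1.56 in cDC2, and stood at 41.2 CPM in Vsig4 KO and 69.3 CPM in WT in all other kept barcodes, a log2 difference of -0.63. Tgfbi had a log2 difference of 0.62 in cDC2, and stood at 144.5 CPM in Vsig4 KO and 248 CPM in WT in the others, a log2 difference of -0.74. By class, the CPM ratio of Tgfbi was 0.632 in cDC1 and 1.01 in classical monocytes, and in mature dendritic cells it gave 17 UMIs in Vsig4 KO and 1 in WT. That of Clec4n was 0.828 in classical monocytes (0.667 to 1.02), and cDC1 and mature dendritic cells had at most 3 UMIs of it per library. Of all measured genes, 5 were called in cDC2 and past 1.5-fold the other way in the other kept barcodes, 4 of them higher in cDC2; the other 3 were Gm9733, Tmem51 and Arap2. With no Flt3 threshold Clec4n was below 1.5-fold, and under the rule on thinned barcodes Tgfbi reversed.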

How the results depend on the processing

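The cDC2 share ratio was below 1 under every other drawing of the rule. As a share of cDC2, cDC1 and mature dendritic cells together it was 0.852, and with classical monocytes added it was 1.11; both counting intervals included 1. With at least 20 UMIs per gene 313 genes were higher and 556 lower, with at least 100 UMIs 54 and 72, and the rule on barcodes thinned to 2000 UMIs gave 117 lower genes. Of the calls, 39.0% were higher; with a total that leaves out ribosomal protein, mitochondrial, immunoglobulin and haemoglobin genes 31.6% were, and with median-of-ratios size factors 45.4%. Of the values of single genes, 1586 stayed within the counting interval of the main value and 176 moved outside it. Another 30 were reversals of called genes. A change of sign in a gene that was not called was not counted as a reversal. Clec4a1, for instance, was at 0.48 and fell to -0.48 under the rule on thinned barcodes. Of list medians, 491 stayed close and 18 moved. The cause was not tested for the reversals that follow, given as log2 differences. With 1 lectin UMI enough, Ccl5 was at 1.38 and Gzma at 1.33. With at least 2 Flt3 UMIs Apoe was at 0.91, Fabp5 at -0.55 and Gzma at 0.81. With no Flt3 threshold Apoe was at 0.53, Ccl5 at 1.03, Cxcl2 at -0.21 and Gzma at 1.47. Under the rule on thinned barcodes, with 18 Vsig4 KO and 41 WT cells, Apoe was at 0.55, Cxcl2 at -0.88, Cxcl9 at 1.67, Fabp5 at -0.57, Fn1 at 0.49, Gzma at 0.42, Havcr2 at 0.82, Ifih1 at -0.73, Ptgs2 at -0.07, Sqle at -0.29, Tgfbi at -0.51 and Tnfaip2 at 0.09. Without the highest doublet scores, and likewise without cells with B, NK or neutrophil UMIs, Ccl5 was at 0.23 and Gzma at 0.40. Without cells with a UMI of Fcgr1, Ms4a7, Adgre1 or Ly6c2, Cxcl9 was at 0.35, F13a1 at 0.45 and Gzma at 0.28. Without the top cells of each gene Ccl5 was at 1.07 and Gzma at 0.34. That last alternative, the one with no Flt3 threshold and the share among dendritic cells were chosen after seeing the data. No paired analysis was possible because each genotype has 1 library. With 50 and 103 cells, depth limits genes of few UMIs: below 50 UMIs over both libraries a gene in cDC2 was not counted as measured.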

Other observations

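Of 6 non-classical monocyte genes, which sum to a higher level in Vsig4 KO cDC2 than in WT cDC2, 2 were measured and none was called. Nr4a1 gave most of that sum, at 1293 CPM in Vsig4 KO and 907 CPM in WT. Macrophage genes summed to 148 CPM in Vsig4 KO and 175 CPM in WT. With 1 library per genotype, such differences and those between mice cannot be told apart.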
